A study of Mus musculus with 24 samples.

Results

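Livers of mice given the plasticiser di(2-ethylhexyl) phthalate (DEHP) alone were compared directly with livers of mice given ethanol alone. The comparison took every RNA-seq library whose title names DEHP alone or ethanol alone, 6 of each kind, 12 of the 24 libraries in all. The animals were male C57BL/6 mice dosed by gavage with 2500 mg/kg DEHP or with 1 g/kg ethanol. The other 12 libraries, from mice given 0.5% carboxymethylcellulose (CMC) as vehicle or given DEHP and ethanol together, helped to estimate the spread between libraries. Vehicle levels are quoted beside some genes to show where vehicle liver lay, but the tests reported here are between DEHP and ethanol only. CMC appears only in the titles of the vehicle libraries. Whether DEHP or ethanol was given in it is not stated, so agent and carrier cannot be told apart. Duration, hour of collection, batch and pooling are absent from the labels, which count 12 mice in a group against 6 libraries. No library is tied to a single mouse, so the p-values measure only the spread between these libraries, which may be technical in part.

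Both agents are handled by the liver but by different machinery. DEHP is cleaved to a monoester that activates PPARα, a nuclear receptor that pairs with RXR and switches on genes for fatty acid uptake, omega-hydroxylation and oxidation in peroxisomes and mitochondria; rodent liver responds strongly and is the classic tissue for peroxisome proliferation. Ethanol is oxidised to acetaldehyde by alcohol dehydrogenase and the P450 enzyme CYP2E1, and acetaldehyde to acetate by aldehyde dehydrogenases. Many liver genes also follow the circadian clock, the feeding state and the sex-specific pattern of growth hormone, so the hour of collection and the feeding state matter to a comparison of this kind, and neither is given in the labels.

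The libraries held 7324793 to 7779687 expected counts with DEHP and 7668152 to 7912089 with ethanol. The 10 hepatocyte markers were all present, with a summed level of 42444 to 48692 FPKM with DEHP and 57985 to 70621 FPKM with ethanol. FPKM divides a gene's reads by transcript length and by the library's total, so it is a level per length. DEHP 6, DEHP 1 and DEHP 5 stood apart from the other DEHP libraries. DEHP 6 carried pancreatic RNA: 23 pancreatic acinar markers summed to 836 FPKM in it, against 16.4 to 28.6 FPKM in the other DEHP libraries and 15.9 to 38.9 FPKM with ethanol, and all 23 were highest in it. DEHP 1 had the highest macrophage marker sum, 620 FPKM against 212 to 253 FPKM in the other DEHP libraries and 162 to 305 FPKM with ethanol. Its neutrophil marker sum was 77.1 FPKM, against 3.29 to 9.28 and 1.31 to 8.71 FPKM. DEHP 5 lay nearest to the ethanol libraries. Adipocyte markers were higher in every DEHP library (23.6 to 160 FPKM in sum) than in any ethanol library (7.34 to 11.02 FPKM), yet Adipoq, the defining hormone of fat cells, was listed at 0 in DEHP 1 to 5 and at 4.75 FPKM in DEHP 6. Among the vehicle libraries the skeletal muscle marker sum reached 8204 FPKM, with a median of 7.68 FPKM. The vehicle ranges quoted below thus include a library with muscle RNA. In bulk tissue, fewer cells of a type and less RNA per cell cannot be told apart.

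The first principal component of the 12 libraries held 43.1% of the variance and separated the groups without overlap, with DEHP at -31.71 to -13.87 and ethanol at 22.19 to 28.42. The DEHP libraries were spread over the second component, which held 13.8%, from -22.67 in DEHP 5 to 31.33 in DEHP 1, and the ethanol libraries lay closer together.

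**Figure D1:**
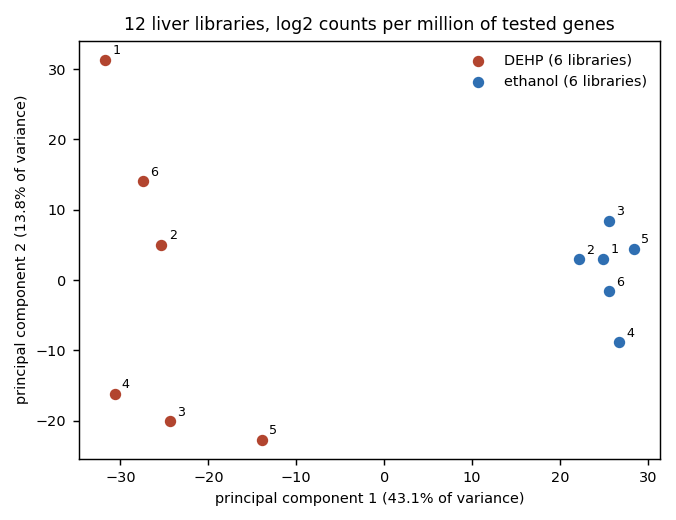
Principal components of the 12 libraries on scaled log2 counts (CPM) of the tested genes; each point is 1 library and carries its replicate number. The 6 DEHP libraries (red) lie at -31.71 to -13.87 on the first component and the 6 ethanol libraries (blue) at 22.19 to 28.42, and DEHP 5 is the DEHP library nearest to ethanol on it.

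Of 10697 genes tested with edgeR's quasi-likelihood test, 2739 (25.6%) differed at a Benjamini-Hochberg adjusted p below 0.05, 1491 of them higher with DEHP (13.9%) and 1248 lower (11.7%). Of these, 295 were at least 2-fold higher with DEHP and 128 at least 2-fold lower. In 1216 called genes (11.4%) no DEHP library overlapped any ethanol library in FPKM, 834 of them higher with DEHP and 382 lower. Overlap was judged here and below on FPKM, without the scaling factors used in the test. Calls made on log2(FPKM + 1), given below, also leaned further to genes higher with DEHP. The split between higher and lower depended on how libraries were scaled. It was 2985 higher and 538 lower on log2(TPM + 1) with limma, where the median of all genes moved by 0.14, to 0.17, and 2115 and 832 with library totals alone, where that median was 0.11. With limma it was 2010 and 877 on log2(FPKM + 1) and 2037 and 876 on log2(FPKM + 0.1). Other scalings evened out the split: 1411 and 1422 with DESeq2, 1363 and 1361 with DESeq2 size factors in edgeR, 1345 and 1382 with upper quartile factors. It was 1447 and 1437 with each library's trend with gene length removed, and 1294 and 1501 with quantile normalisation in limma. The percentages above are the background for every gene group below, and log2 differences are DEHP minus ethanol throughout, with a median over all genes of 0.02. A value in parentheses after a gene is its log2 difference, and adjusted p-values are edgeR's.

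**Figure D2:**
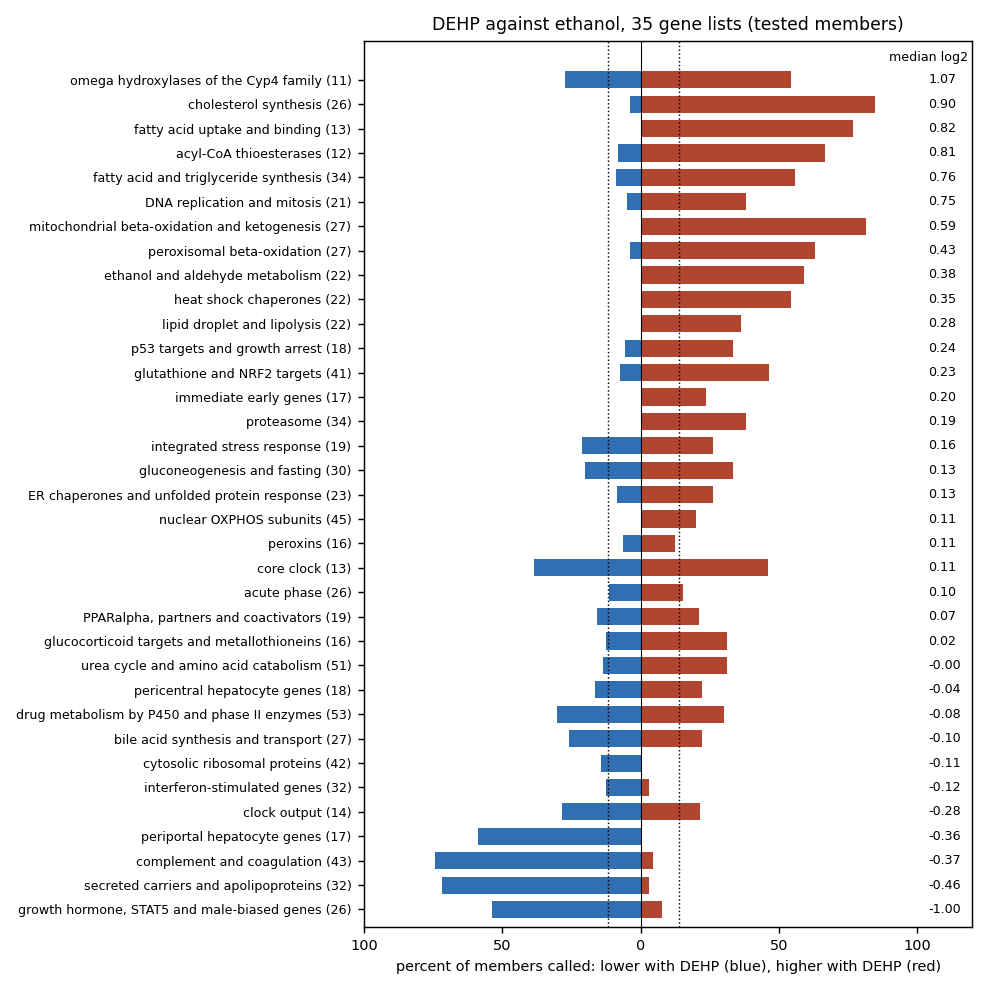
Share of the tested members of each of 35 gene lists that were called higher with DEHP (red, to the right) or lower (blue, to the left), with the number of tested members in parentheses and the median log2 difference at the right; dotted lines mark the shares over all genes, 13.9% and 11.7%. Lists are ordered by median, with Cyp4 genes, cholesterol synthesis and fatty acid uptake at the top and complement, secreted protein and male-biased lists at the bottom. Mitochondrial and peroxisomal beta-oxidation lie below thioesterases, fatty acid and triglyceride synthesis, and DNA replication.

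Genes of fatty acid oxidation were higher with DEHP, and the largest gaps were in single Cyp4a and peroxisomal genes. Of the 11 tested Cyp4 genes 6 were higher and 3 lower, of 27 genes of peroxisomal beta-oxidation 17 were higher, and of 27 mitochondrial genes 22 were higher. The omega-hydroxylases of the Cyp4a subfamily, which start the breakdown of fatty acids from the far end, led the first of these lists. Cyp4a14 (chromosome 4, 115486200 to 115496158, GRCm38.p6) lay at 2129.5 to 3888 FPKM (median 3248) in the DEHP livers and at 94.4 to 235 FPKM (median 131) in the ethanol livers. The lowest DEHP library thus stood well above the highest ethanol library, and the groups did not overlap (log2 4.38 ± 0.42 SE, adjusted p = 2.73e-08, edgeR). Cyp4a31 (log2 4.68 ± 0.26 SE, adjusted p = 1.74e-12), Cyp4a10 (4.01) and Cyp4a12a (1.07) were higher too, although reads of these near-identical neighbours may be shared between them. The list was not uniform. The 3 lower members, Cyp4f13 (-0.50), Cyp4f14 (-0.89) and Cyp4v3 (-0.63), belong to the 4F and 4V subfamilies, and 4F enzymes are known for hydroxylating leukotrienes and other eicosanoids.

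Peroxisomal beta-oxidation had a median log2 difference of 0.43, with 1 member lower (none without DEHP 2, 2 without DEHP 5). Ehhadh, a bifunctional enzyme of the pathway (chromosome 16, 21761285 to 21787834), lay at 1302 to 3557 FPKM (median 2492) against 87.6 to 110.2 FPKM (median 102). Its difference of 23-fold (log2 4.52 ± 0.24 SE, adjusted p = 6.76e-13) had no overlap between groups, and the vehicle livers, at 65.8 to 122 FPKM (median 105), overlapped the ethanol livers. The thiolase gene Acaa1b was higher (2.24), with reads that may be shared with Acaa1a. Cat, the catalase that removes the hydrogen peroxide peroxisomes release, did not pass: 1166 to 1397 FPKM (median 1368) against 1132 to 1289 FPKM (median 1174), with overlap (log2 0.09 ± 0.09 SE, adjusted p = 0.504). The single lower member was Nudt7, a peroxisomal hydrolase of coenzyme A (log2 -0.71 ± 0.22 SE, adjusted p = 0.0194), whose groups overlapped because DEHP 5 reached 549 FPKM; without DEHP 2 its adjusted p was 0.0516 (edgeR). The peroxins, which build the organelle, gave 2 higher and 1 lower of 16, no larger a share than the background in either direction, with 1 higher without DEHP 1, DEHP 4 or ethanol 6 and 9 on log2(TPM + 1). Pex11a, which promotes division of peroxisomes, was among the higher ones (log2 0.43 ± 0.14 SE, adjusted p = 0.0217), and this call was lost without DEHP 1 (0.28, adjusted p = 0.0915), without DEHP 4 (adjusted p = 0.0509) and without ethanol 6 (adjusted p = 0.0575).

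Acyl-CoA thioesterases, which release free fatty acids from coenzyme A, were higher in 8 of 12 genes and lower in 1. The mitochondrial member Acot2 lay at 8.3 to 45.6 FPKM (median 29.8) with DEHP and 1.21 to 2.46 FPKM (median 1.82) with ethanol (log2 3.85 ± 0.33 SE, adjusted p = 2.58e-09), and the cytosolic Acot1 at 72.5 to 368 FPKM (median 175) and 25.4 to 52.5 FPKM (median 39.1) (log2 2.28 ± 0.34 SE, adjusted p = 1.75e-05). These paralogs lie side by side and may share reads. Acot11 was the lower one (-0.84).

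Mitochondrial beta-oxidation and ketogenesis had a median of 0.59 and no lower member, and 19 of its 27 tested genes were called with no overlap between the groups. The largest of those named was Acadm, the medium-chain acyl-CoA dehydrogenase, at 264 to 373 FPKM (median 292) against 107 to 135 FPKM (median 112) (log2 1.31 ± 0.10 SE, adjusted p = 3.88e-10). Decr1 (1.17) and Eci1 (1.23), which handle double bonds in unsaturated chains, and Hadhb (1.13), the thiolase subunit of the trifunctional protein, differed by similar amounts. Cpt1a, the carnitine transferase that gates entry of fatty acids into mitochondria, did not differ beyond the spread: 70.4 to 84.6 FPKM (median 79.4) with DEHP and 73.02 to 108 FPKM (median 78.6) with ethanol (log2 -0.14 ± 0.12 SE, adjusted p = 0.417). The receptor gene itself, Ppara, was also not called (median 31.8, range 29.2 to 33.9 FPKM, against median 29.96, range 28.1 to 41.5 FPKM, log2 -0.23 ± 0.12 SE, adjusted p = 0.187). Fgf21, a fasting hormone controlled by PPARα, fell below the filter, with medians of 0.51 FPKM with DEHP and 0.5 FPKM with ethanol, and was not tested.

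Fatty acid uptake genes gave 10 of 13 higher and none lower (median 0.82). Cd36, the fatty acid receptor of the cell surface (chromosome 5, 17781690 to 17888959), lay at 54.1 to 95.02 FPKM (median 69.9) with DEHP and at 3.86 to 6.43 FPKM (median 5.36) with ethanol, a 13-fold difference (log2 3.70 ± 0.25 SE, adjusted p = 6.27e-11, edgeR). Slc27a1, a fatty acid transport protein more typical of muscle and fat, lay at 17.03 to 47.5 FPKM (median 29.1) against 2.6 to 4.15 FPKM (median 2.73) (log2 3.26 ± 0.27 SE, adjusted p = 1.43e-09). Both genes were high in all 6 DEHP livers. Fabp1, the abundant fatty acid binding protein of hepatocytes, lay at 9814 to 15103 FPKM (median 11743) against 5968 to 7495 FPKM (median 7093) (log2 0.76 ± 0.12 SE, adjusted p = 2.8e-05). Its promoter is shown because the rodent gene is a textbook target of PPARα. In the 250 bases before its start (RefSeq, GRCm38.p6, chr6:71199767-71199869, plus strand) the capitals mark 2 copies of AGGNCA with 1 base between, read on the minus strand, a loose form of the direct repeat that PPARα binds with RXR.
Fabp1: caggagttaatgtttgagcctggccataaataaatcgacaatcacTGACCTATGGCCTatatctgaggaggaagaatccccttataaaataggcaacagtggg
Such a loose repeat was found, on either strand, in 0.338% of all 32851 promoter windows, in 0.282% of the windows of tested genes, in 0.195% of the 1535 windows of genes higher with DEHP and in 0.895% of the 1341 windows of genes lower with DEHP. By list, the loose repeat was in 1 of the 13 windows of the uptake genes, that of Fabp1. None of the windows of the Cyp4, peroxisomal, thioesterase, mitochondrial or lipid droplet lists held it. The strict repeat, 2 copies of AGGTCA with 1 base between, was in 0.0335% of all windows and in none of the windows of the peroxisomal or Cyp4 lists, so the matches are a description of these short windows only.

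Lipid droplet and lipolysis genes gave 8 of 22 higher and none lower (1 lower without DEHP 6 or ethanol 4). Hsd17b11, a droplet-coating enzyme, lay at 513 to 665 FPKM (median 599) against 92.99 to 101 FPKM (median 97.95) (5.71-fold, log2 2.51 ± 0.11 SE, adjusted p = 1.67e-14). Plin2, the main droplet coat protein of hepatocytes, was higher by a small amount (log2 0.50 ± 0.10 SE, adjusted p = 0.000308); its vehicle level, 246 to 319.6 FPKM (median 288), lay with DEHP rather than with ethanol, whose livers held 177 to 224 FPKM (median 191). Angptl4, a secreted inhibitor of lipoprotein lipase and a PPAR target, was likewise higher with DEHP than with ethanol (median 44.7, range 32.3 to 69.1 FPKM, against median 21, range 13.8 to 37.2 FPKM, log2 0.98 ± 0.29 SE, adjusted p = 0.0133), while vehicle livers lay above most of both, at 59.9 to 127 FPKM (median 95.8). For these 2 genes the direct comparison alone does not show which agent departs from vehicle liver.

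**Figure D3:**
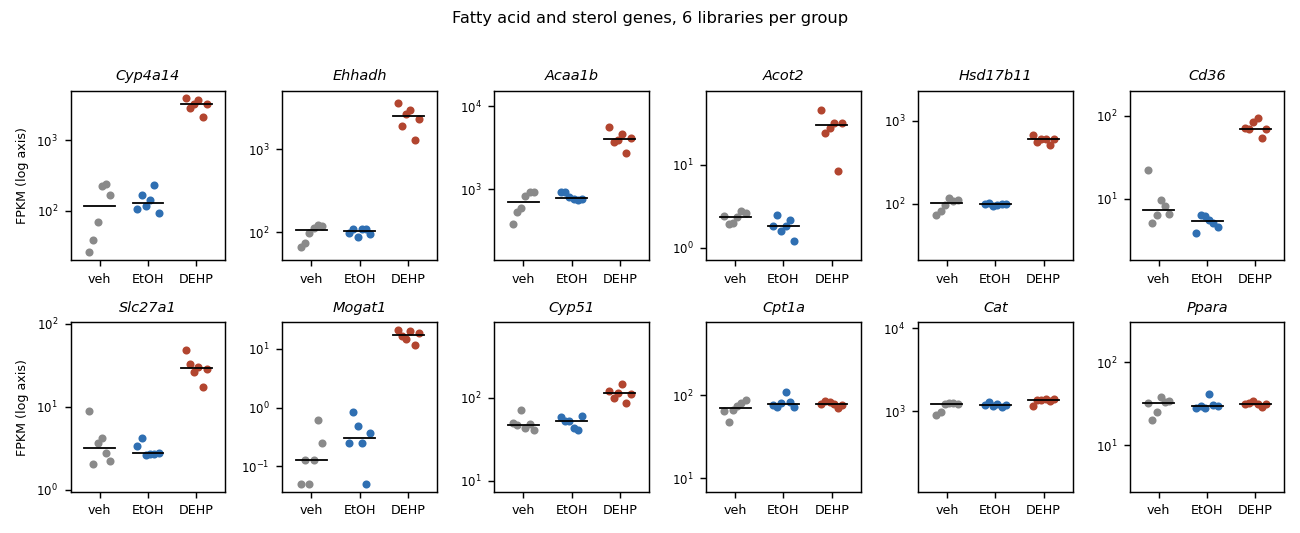
FPKM per library on log axes for 12 genes of fatty acid and sterol metabolism; each point is 1 of 6 libraries with vehicle (veh, grey), ethanol (EtOH, blue) or DEHP (red), the bar is the median, and values of 0 are drawn at 0.05. From Cyp4a14 to Cyp51 the DEHP libraries lie above all ethanol libraries, and for Cpt1a, Cat and Ppara the groups overlap.

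Synthesis genes were also higher with DEHP. In cholesterol synthesis 22 of 26 genes were higher and 1 was lower (median 0.90), the largest share of any of the 35 pathway lists. Hmgcs1, which makes HMG-CoA, lay at 296 to 636 FPKM (median 382) with DEHP and 58.4 to 197 FPKM (median 90.02) with ethanol (log2 1.94 ± 0.26 SE, adjusted p = 3.77e-06). Acat2 (1.43), Pmvk (1.37), Lss (1.60) and Cyp51 (1.04), enzymes from the first condensation to the demethylation of lanosterol, were higher without overlap. Among the 18 cholesterol genes with a promoter window, only Hmgcs1 held the letters TCACNCCAC of a sterol response element on either strand, against 1.05% of all windows. The stretch is shown because this gene led the list (RefSeq, GRCm38.p6, chr13:119690169-119690267, plus strand), with the match in capitals.
Hmgcs1: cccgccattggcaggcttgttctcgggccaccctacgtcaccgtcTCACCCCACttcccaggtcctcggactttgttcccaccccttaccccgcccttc
Hmgcs1 was singled out after its values and its promoter had been seen.

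Lipogenic genes followed: 19 of 34 for fatty acid and triglyceride synthesis were higher and 3 lower (median 0.76). Me1, which supplies NADPH, lay at 135 to 290.2 FPKM (median 188) against 64.8 to 75.3 FPKM (median 72.6) (log2 1.35 ± 0.16 SE, adjusted p = 9.85e-07), and Fasn, the fatty acid synthase, at 88.5 to 205 FPKM (median 154) against 42.8 to 87.03 FPKM (median 55.6) (log2 1.22 ± 0.29 SE, adjusted p = 0.00262). Mogat1, an acyltransferase that builds diacylglycerol, was at 11.7 to 20.9 FPKM (median 17.5) with DEHP and at 0 to 0.85 FPKM (median 0.31) with ethanol (log2 5.40 ± 0.34 SE, adjusted p = 1.17e-11), one of the 12 largest gaps among well-expressed genes. The 3 lower members were Pklr, liver pyruvate kinase (median 28.9, range 21.98 to 32.8 FPKM, against median 66.2, range 51.6 to 91.3 FPKM, log2 -1.41 ± 0.15 SE, adjusted p = 1.19e-07), Dgat2, which completes triglycerides (-0.64), and Srebf1, the regulator of lipogenesis (log2 -0.55 ± 0.20 SE, adjusted p = 0.0449). The Srebf1 call was lost on leaving out any 1 of 8 libraries (DEHP 2, 3, 4 or 5, or ethanol 1, 3, 4 or 6), with adjusted p-values of 0.0555 to 0.102 (edgeR). Enzymes of fatty acid oxidation and of fatty acid synthesis were thus higher in the same livers.

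Alcohol and aldehyde metabolism gave 13 of 22 genes higher with DEHP and none lower (median 0.38), and of the enzymes best known for ethanol itself Adh1 was among them, Cyp2e1 and Aldh2 were not. Adh1, the main alcohol dehydrogenase, was higher (median 2460.4, range 1899 to 2737 FPKM, against median 1428, range 1338 to 1647 FPKM, log2 0.62 ± 0.13 SE, adjusted p = 0.000647). Cyp2e1 lay at 3559 to 4929.6 FPKM (median 3945) against 3174 to 4117 FPKM (median 3614) (log2 0.08 ± 0.12 SE, adjusted p = 0.696) and Aldh2, the mitochondrial acetaldehyde dehydrogenase, at 1011 to 1306 FPKM (median 1122) against 1128 to 1255 FPKM (median 1160.4) (log2 -0.12 ± 0.09 SE, adjusted p = 0.343); neither passed. The larger differences were in Aldh3a2, the fatty aldehyde dehydrogenase (median 309.8, range 199.6 to 409 FPKM, against median 93.04, range 77.8 to 110.2 FPKM, log2 1.66 ± 0.17 SE, adjusted p = 9.66e-08), the retinol dehydrogenase genes Rdh16 (1.70) and Rdh11 (1.25), and Acss3, an acyl-CoA synthetase for short chains (1.88).

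Drug-metabolising enzymes were split, 16 of 53 higher and 16 lower. The largest difference of all named genes was in Cyp2b9 (chromosome 7, 26173350 to 26210661), at 10.7 to 186 FPKM (median 67.5) with DEHP and 0 to 0.52 FPKM (median 0.29) with ethanol (log2 8.06 ± 0.84 SE, adjusted p = 9.23e-08, edgeR). Cyp2b10, a P450 widely read as a target of CAR, lay at 8.9 to 35.8 FPKM (median 26.02) against 0.23 to 2.23 FPKM (median 1.02) (log2 4.33 ± 0.49 SE, adjusted p = 2.83e-07), and Cyp2a4 at 9.79 to 33.5 FPKM (median 16.8) against 0.08 to 0.84 FPKM (median 0.17) (log2 5.78 ± 0.54 SE, adjusted p = 1.12e-08). All 3 were low with ethanol and high in every DEHP liver, without overlap, and reads may be shared within the Cyp2b and Cyp2a families. Cyp2b9 and Cyp2a4 are known as female-predominant genes in mouse liver. Cyp3a11, a classic target of PXR, missed the threshold (median 2192, range 1854 to 2629 FPKM, against median 2222, range 1739 to 2559 FPKM, log2 -0.05 ± 0.12 SE, adjusted p = 0.81). Cyp2d40 (log2 -1.81 ± 0.14 SE, adjusted p = 7.41e-10), Cyp2u1 (-1.75), Ces1c, a carboxylesterase (-0.96), and Cyp1a2, a target of the aryl hydrocarbon receptor (-0.58), were lower with DEHP.

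Glutathione and NRF2 target genes gave 19 of 41 higher and 3 lower. Gsta1, a glutathione transferase, lay at 15.9 to 67.5 FPKM (median 40.1) against 1.99 to 7.19 FPKM (median 4.86) (log2 2.90 ± 0.41 SE, adjusted p = 6.98e-06), and Gstt3 (1.41), Gstt2 (1.15) and the peroxisomal Gstk1 (0.53) were higher as well. The lower members were the pi-class transferases Gstp1, at 1312 to 2145 FPKM (median 1426) against 4991 to 6507 FPKM (median 5829) (log2 -1.94 ± 0.18 SE, adjusted p = 1.13e-08), and its near-identical neighbour Gstp2 (-1.90), and Gss, glutathione synthetase (-1.03). Vehicle livers held 3065 to 5156 FPKM (median 3596) of Gstp1, with a median between those of the groups.

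Secreted liver proteins were the main group lower with DEHP. Of 43 complement and coagulation genes 32 were lower and 2 higher (median -0.37), and of 32 carriers and apolipoproteins 23 were lower and 1 higher (median -0.46). Both medians were below 0 under all 9 other scalings and tests, between -0.39 and -0.19 and between -0.48 and -0.29. The count of lower complement and coagulation genes fell to 27 without DEHP 6, also to 27 without DEHP 1, and the lowest count under any alternative was 19. Of the 2 higher genes of that list, Cfd had its largest difference (5.66) and is also counted with the adipocyte markers below. Most differences were small: Cfi, a complement inhibitor, lay at 217 to 251 FPKM (median 228) against 307 to 378 FPKM (median 329) (log2 -0.62 ± 0.07 SE, adjusted p = 1.16e-07), C1s1, a protease of the first complement component, at 77.3 to 111 FPKM (median 96.5) against 146 to 173 FPKM (median 154) (log2 -0.78 ± 0.09 SE, adjusted p = 3.3e-07), and Apoc3 at 2247 to 2743 FPKM (median 2527) against 4109 to 5108 FPKM (median 4536) (log2 -0.92 ± 0.10 SE, adjusted p = 1.61e-07). None of these 3 overlapped between groups. Alb, albumin, lay at 17613 to 26874 FPKM (median 24104) against 28289 to 36949 FPKM (median 30874) (log2 -0.51 ± 0.11 SE, adjusted p = 0.00155), but quantile normalisation, which makes the top value of every library equal, gave a difference of 0 with an adjusted p of 1 in limma.

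Larger gaps were found in single secreted proteins. Serpina12, the adipokine vaspin (chromosome 12, 104028769 to 104044443), was nearly absent with DEHP, at 0 to 0.93 FPKM (median 0.14), and lay at 9.38 to 17.7 FPKM (median 14.5) with ethanol (log2 -5.97 ± 0.46 SE, adjusted p = 5.39e-10). Its vehicle level, 7.82 to 15.8 FPKM (median 11.6), overlapped that of ethanol. Apoa4, an apolipoprotein of triglyceride-rich particles, lay at 15.3 to 25.4 FPKM (median 20.04) against 79.8 to 205 FPKM (median 123) (log2 -2.79 ± 0.22 SE, adjusted p = 6.66e-10). Tff3, a secreted trefoil peptide, lay at 0.45 to 8.02 FPKM (median 1.65) against 12.4 to 20.5 FPKM (median 15.9) (log2 -2.64 ± 0.41 SE, adjusted p = 2.15e-05), and Hamp, the iron hormone hepcidin, at 148 to 658 FPKM (median 333) against 556 to 1630.3 FPKM (median 1194), with overlap (log2 -1.76 ± 0.32 SE, adjusted p = 0.000183). The exception among the carriers was Pltp, the phospholipid transfer protein, which was higher (median 231, range 111 to 282 FPKM, against median 56.4, range 42.6 to 66.4 FPKM, log2 1.86 ± 0.20 SE, adjusted p = 1.88e-07).

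Genes of the growth hormone and STAT5 axis and male-biased genes gave 14 of 26 lower with DEHP and 2 higher, with a median of -0.997. The larger of the 2 higher ones was Cyp4a12a (1.07), which is also counted with the Cyp4 genes. The values depended on the library. Hsd3b5, a steroid-metabolising enzyme found in male liver, lay at 151 to 210.1 FPKM (median 164) with ethanol, while in DEHP 1 to 6 it lay at 3.58, 6.26, 41.2, 4.26, 118 and 2.42 FPKM (log2 -2.63 ± 0.81 SE, adjusted p = 0.0183). DEHP 5 lay nearest to ethanol and DEHP 3 in between, whereas the remaining 4 held at most 6.26 FPKM, and no DEHP library reached the ethanol range. The bile acid and steroid transporter gene Slco1a1 had the same order, with 45.05 FPKM in DEHP 5, 31.2 FPKM in DEHP 3 and at most 10.7 FPKM in the other DEHP livers, against 78.8 to 107 FPKM (median 86.9) (log2 -2.49 ± 0.52 SE, adjusted p = 0.000753). The major urinary proteins are male-biased pheromone carriers: Mup20 lay at 1010.1 to 4201 FPKM (median 1723) against 6996 to 9172 FPKM (median 7823) (log2 -2.05 ± 0.34 SE, adjusted p = 5.3e-05), Mup3 at 778 to 4427 FPKM (median 1491) against 7548 to 9960.5 FPKM (median 8358) (log2 -2.14 ± 0.33 SE, adjusted p = 2.64e-05), and Mup21 differed by -2.14. Of 20 Mup genes tested, 6 were lower and 14 were not called, among them the abundant Mup10 (-0.19, adjusted p = 0.369) and Mup7 (-1.98, adjusted p = 0.144), singled out after their values were seen. Serpina1e (log2 -2.92 ± 0.72 SE, adjusted p = 0.0036) and Ugt2b38 (log2 -2.82 ± 0.70 SE, adjusted p = 0.00369) were lower too. Mup and Serpina1 genes have near-identical copies, so their single values are uncertain. Igfals, which carries IGF1 in blood, was lower without overlap (median 39.9, range 33.3 to 47.4 FPKM, against median 77.2, range 61.7 to 99.4 FPKM, log2 -1.05 ± 0.11 SE, adjusted p = 1.61e-07).

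DEHP 5 was the DEHP library nearest to the ethanol mean in 13 of the 16 called genes of that list, in 15 of 18 called genes of peroxisomal beta-oxidation and in 17 of 23 of cholesterol synthesis, against 771 of all 2739 called genes (28.1%). DEHP 5 thus held the lowest Ehhadh (1302 FPKM) and Cyp2b9 (10.7 FPKM) of its group together with the highest Hsd3b5. Its marker sums were the lowest of the 6 DEHP libraries for hepatocytes (42444 FPKM, others at least 43035), endothelial cells (117 FPKM) and stellate cells (109 FPKM), and lay inside the range of the others for adipocytes (29.8 FPKM) and macrophages (235 FPKM). Their part in the result was not tested. Without DEHP 5 the median of the male-biased list was -1.26 with 18 genes lower, and that of peroxisomal beta-oxidation 0.47 with 17 higher.

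**Figure D4:**
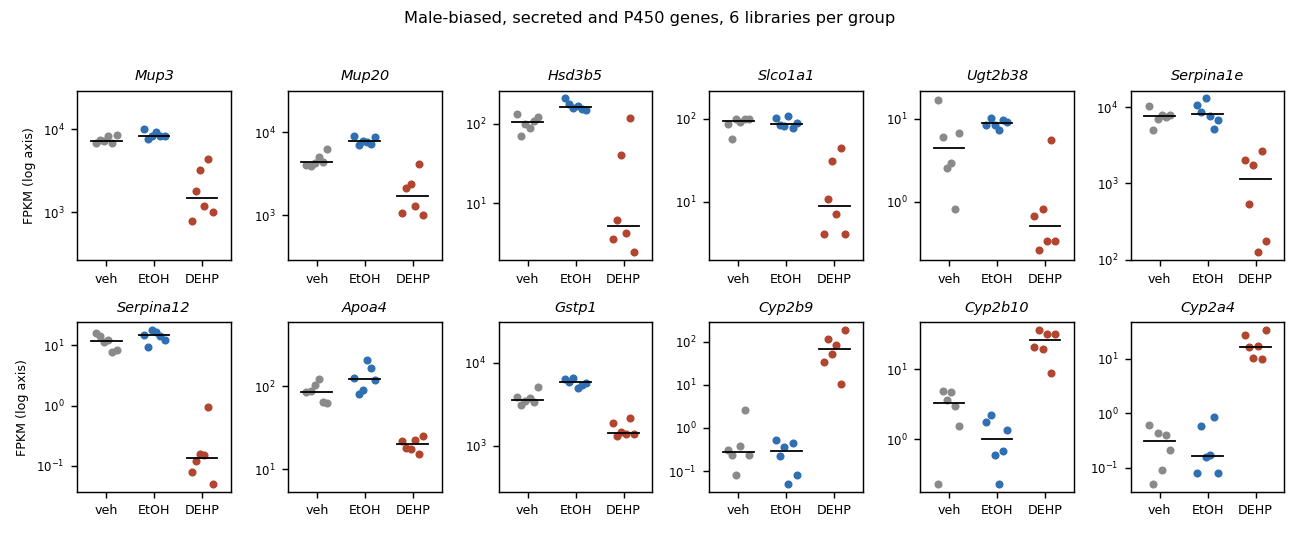
FPKM per library on log axes for male-biased, secreted and P450 genes; each point is 1 of 6 libraries with vehicle (veh, grey), ethanol (EtOH, blue) or DEHP (red), in replicate order from left to right, the bar is the median, and values of 0 are drawn at 0.05. The fifth DEHP point of Hsd3b5, at 118.05 FPKM, lies near the ethanol libraries, while in Cyp2b9 the fifth, at 10.7 FPKM, is the lowest of the DEHP group.

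Clock genes differed, and for several of them the vehicle livers lay with DEHP and not with ethanol. Of 13 core clock genes 6 were higher with DEHP and 5 lower, and of 14 output genes 3 were higher and 4 lower. Dbp, a transcription factor driven directly by the clock (chromosome 7, 45705100 to 45710203), lay at 0.65 to 1.94 FPKM (median 1.52) with DEHP and at 16.6 to 77.3 FPKM (median 46.3) with ethanol, 40.7-fold lower with DEHP (log2 -5.35 ± 0.42 SE, adjusted p = 6.52e-10, edgeR). Vehicle livers held 0.36 to 1.67 FPKM (median 0.66) of Dbp, beside DEHP. Tef, a relative of Dbp, showed the same arrangement, with 6.39 to 10.02 FPKM (median 8.88) for DEHP, 18.5 to 34.4 FPKM (median 27.4) for ethanol and 5.43 to 8.82 FPKM (median 7.81) for vehicle (log2 -1.72 ± 0.17 SE, adjusted p = 2.96e-08). The repressor gene Nr1d1, which encodes REV-ERBα, lay at 3.4 to 24.2 FPKM (median 20.05) with DEHP and 42.9 to 64.7 FPKM (median 59.4) with ethanol (log2 -1.82 ± 0.31 SE, adjusted p = 7.97e-05), and in vehicle livers at 3.17 to 9.7 FPKM (median 5.49); DEHP 1, at 3.4 FPKM, was the DEHP library farthest from ethanol. Nr1d2 (-1.47), Cry2 (-0.90), Per2 (-1.66), Bhlhe40 (-1.30) and Hlf (-1.05) were lower with DEHP as well. Bhlhe40 and Per2 did not share the arrangement, since their vehicle medians, 21.7 and 1.3 FPKM, lay near the ethanol medians of 20.6 and 1.43 FPKM. Nr1d1 shared it in part: the DEHP libraries other than DEHP 1, at 13.05 to 24.16 FPKM, lay between the vehicle and ethanol ranges. Per1 was not called (log2 -0.81 ± 0.31 SE, adjusted p = 0.0595).

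The activators of the same loop went the other way. Arntl, which encodes BMAL1, lay at 7.53 to 13.5 FPKM (median 9.2) with DEHP, 1.16 to 6.31 FPKM (median 3.11) with ethanol and 9.47 to 12.3 FPKM (median 10.5) with vehicle (log2 1.49 ± 0.26 SE, adjusted p = 0.000113), and its partner Npas2 at 1.69 to 3.44 FPKM (median 2.61), 0.07 to 0.73 FPKM (median 0.47) and 2.8 to 4.08 FPKM (median 3.87) (log2 2.61 ± 0.32 SE, adjusted p = 9.32e-07). Nfil3, which competes with Dbp for D-box sites, was higher with DEHP (1.05). In the known daily cycle, Arntl, Npas2 and Nfil3 peak in antiphase to Dbp, Tef and Nr1d1. Whether the groups were collected at different hours is not given in the labels, so hour of collection and treatment cannot be told apart. An E-box, CACGTG, the site of BMAL1 with its partner, lies in the 250 bases before both RefSeq starts of Tef (GRCm38.p6, chr15:81802501-81802596 and chr15:81811231-81811326, plus strand), shown with the site in capitals because this gene carries the pattern.
Tef start 1: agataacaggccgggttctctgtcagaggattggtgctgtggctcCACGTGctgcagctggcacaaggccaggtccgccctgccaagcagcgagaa
Tef start 2: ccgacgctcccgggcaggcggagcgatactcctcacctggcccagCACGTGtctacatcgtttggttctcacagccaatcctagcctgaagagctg
An E-box was in 6.02% of all promoter windows, in 8.51% of the windows of tested genes, in 8.93% of the windows of genes higher with DEHP and in 7.83% of those of genes lower with DEHP. Both shares of called genes lay near that of the tested genes. Of the clock lists, an E-box was in 4 of the 18 windows of the output genes, both of Tef's among them. It was in 2 of the 14 windows of the core clock genes. The D-box letters TTATGTAA were in 0.819% of all windows, in 0.519% of those of tested genes and in 1 of the 18 windows of the output genes.

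Several further regulators were lowest in the ethanol livers. For Cdkn1a, Ppard and Lpin1 the DEHP range also lay below the vehicle range. Cdkn1a, the cell cycle inhibitor p21 (chromosome 17, 29090979 to 29100722), lay at 20.7 to 36.8 FPKM (median 35.2) with DEHP, 1.18 to 2.34 FPKM (median 1.28) with ethanol and 43.2 to 83.7 FPKM (median 49.98) with vehicle. That was 20.4-fold higher with DEHP than with ethanol (log2 4.35 ± 0.22 SE, adjusted p = 1.75e-13, edgeR), in 6 of 6 libraries. Among 18 p53 targets and growth arrest genes 6 were higher with DEHP and 1 lower. Trp53inp1 (median 15.2, range 12.8 to 19.4 FPKM, against median 4.58, range 3.37 to 6.08 FPKM, log2 1.66 ± 0.12 SE, adjusted p = 2.82e-10) and Btg2 (1.62), an antiproliferative gene, were higher; Mdm2 and Bax, p53 targets as well, were not called (0.23 and -0.05). The lower one was Gadd45g (log2 -1.94 ± 0.48 SE, adjusted p = 0.00389), whose level in ethanol 1 was 37.3 FPKM against at most 10.9 FPKM in the other ethanol livers. Without ethanol 1 its difference was -1.14. Zbtb16, a zinc-finger repressor induced by glucocorticoids, lay at 7.35 to 14.8 FPKM (median 12.5) with DEHP, 0.47 to 4.43 FPKM (median 0.88) with ethanol and 9.0 to 16.99 FPKM (median 13.1) with vehicle (log2 3.20 ± 0.34 SE, adjusted p = 1.04e-07). Ppard, the receptor PPARδ, lay at 6.51 to 11.4 FPKM (median 9.29), 1.46 to 3.59 FPKM (median 2.21) and 11.9 to 18.6 FPKM (median 13.6) (log2 1.86 ± 0.23 SE, adjusted p = 1.38e-06). Lpin1, a phosphatidate phosphatase and fasting coactivator, lay in between with DEHP, at 25.2 to 32.6 FPKM (median 27.8), with 5.93 to 14.1 FPKM (median 10.2) for ethanol and 52.01 to 94.2 FPKM (median 74.9) for vehicle (log2 1.43 ± 0.21 SE, adjusted p = 9.85e-06).

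**Figure D5:**
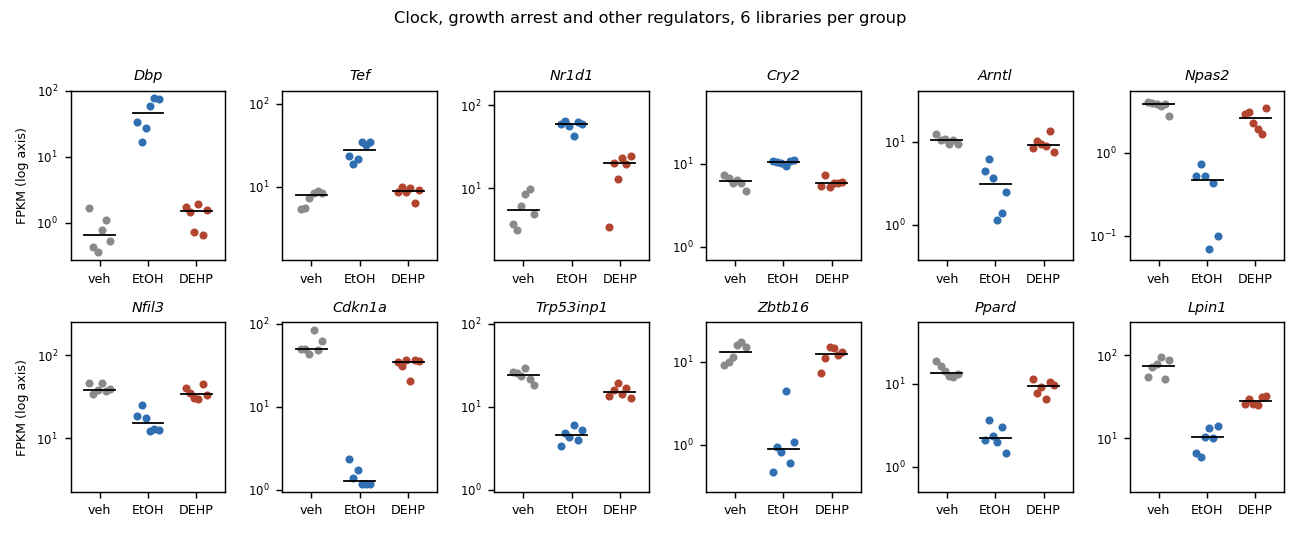
FPKM per library on log axes for clock genes and other regulators; each point is 1 of 6 libraries with vehicle (veh, grey), ethanol (EtOH, blue) or DEHP (red), and the bar is the median. Dbp, Tef and Nr1d1 are highest with ethanol and Arntl, Npas2 and Cdkn1a lowest with ethanol, without overlap between ethanol and DEHP, and the vehicle points of Dbp, Tef, Arntl, Nfil3 and Zbtb16 overlap the DEHP points.

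Genes of glucose production and fasting gave 10 of 30 higher and 6 lower, and without ethanol 5 the counts were 6 and 5. The glycogen-targeting subunit Ppp1r3g lay at 2.83 to 9.87 FPKM (median 5.62) against 0.06 to 0.35 FPKM (median 0.18) (log2 4.94 ± 0.54 SE, adjusted p = 1.77e-07), with vehicle at 1.16 to 6.43 FPKM (median 2.26). G6pc, which releases free glucose, was higher with DEHP than with ethanol, with overlap (median 97, range 78.5 to 131 FPKM, against median 60.4, range 40.1 to 89.1 FPKM, log2 0.67 ± 0.19 SE, adjusted p = 0.0115), and both lay below the vehicle livers, at 145 to 241 FPKM (median 219). Pck1, the gluconeogenic carboxykinase, was not called (median 912, range 675 to 1091 FPKM, against median 714, range 459.8 to 1102 FPKM, log2 0.19 ± 0.18 SE, adjusted p = 0.481). Pdk4, a kinase that limits glucose oxidation and is a PPAR target, was higher (median 8.45, range 3.86 to 12.7 FPKM, against median 1.32, range 0.83 to 4.28 FPKM, log2 2.05 ± 0.57 SE, adjusted p = 0.0088). Igfbp1, an insulin-repressed binding protein, passed with all libraries (log2 1.23 ± 0.45 SE, adjusted p = 0.0436) and not without DEHP 1 (0.74, adjusted p = 0.203), whose level of 159.6 FPKM was the highest of the 12; it was also lost without DEHP 2 or any ethanol library but the third, with adjusted p-values of 0.0513 to 0.103 (edgeR). The coactivator Ppargc1a was higher without overlap (median 2.58, range 1.59 to 2.91 FPKM, against median 1.04, range 0.84 to 1.41 FPKM, log2 1.13 ± 0.19 SE, adjusted p = 8.13e-05).

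Heat shock chaperones gave 12 of 22 higher with DEHP and none lower. The mitochondrial pair Hspd1 (median 302, range 269.9 to 395 FPKM, against median 165, range 148 to 184 FPKM, log2 0.87 ± 0.09 SE, adjusted p = 1.2e-07) and Hspe1 (0.93), the cytosolic Hsp90aa1 (1.01) and the small chaperone Hspb1 (1.22) were among them. Hspa1b, whose reads may be shared with Hspa1a, was higher with overlap (log2 0.65 ± 0.18 SE, adjusted p = 0.0079). The chaperones of the endoplasmic reticulum gave 6 of 23 higher and 2 lower, with Hspa5 among the higher ones (log2 0.62 ± 0.20 SE, adjusted p = 0.0208; lost without DEHP 5, ethanol 3 or ethanol 5, adjusted p = 0.0557 to 0.068) and Xbp1, the transcription factor of the unfolded protein response, among the lower ones (-0.69). Without DEHP 5 that list had 3 higher and 4 lower, and without ethanol 3 or 5 it also had 3 higher. The metallothionein genes Mt1 (log2 0.27 ± 0.40 SE, adjusted p = 0.673) and Mt2 (log2 1.07 ± 0.57 SE, adjusted p = 0.18) were not called. Of 26 acute phase genes 4 were higher and 3 lower, and 2 were higher without DEHP 1. The 26.9% of acute phase genes called lay near the 25.6% of all genes. Lcn2, a neutrophil and hepatocyte acute phase protein, was higher with all libraries (log2 3.04 ± 0.86 SE, adjusted p = 0.0106) and did not pass without DEHP 1 (2.18, adjusted p = 0.0539), in which it reached 192 FPKM; the neutrophil marker sum of DEHP 1 was also the highest, and its part in the result was not tested. Among 17 immediate early genes 4 were higher and none lower (1 lower without DEHP 1, 4 or 5), led by Egr1 (median 25.2, range 14.8 to 56.8 FPKM, against median 3.06, range 1.74 to 14.9 FPKM, log2 2.59 ± 0.54 SE, adjusted p = 0.000754), with overlap because ethanol 3 reached 14.9 FPKM. The share of immediate early genes called was 23.5%, all higher, against 25.6% called and 13.9% higher over all genes.

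In DNA replication and mitosis 8 of 21 tested genes were higher and 1 lower (3 without DEHP 1, 2 without ethanol 4). The helicase subunit Mcm6 lay at 4.75 to 11.1 FPKM (median 6.65) against 0.6 to 1.53 FPKM (median 1.3) (log2 2.47 ± 0.26 SE, adjusted p = 8.76e-08), and Mcm4 (1.54), Mcm2 (1.38) and the ligase Lig1 (1.55) were higher without overlap. Of the 35 genes listed, 14 were too weakly expressed to be tested. Mcm10 was the lower one (-0.78). Proteasome subunits gave 13 of 34 higher and none lower, by small amounts, with a median of 0.19 and Psmd14, a deubiquitinating subunit, at 34.7 to 51.4 FPKM (median 41.9) against 23.3 to 30.5 FPKM (median 28.9) (log2 0.55 ± 0.10 SE, adjusted p = 0.000284). The proteasome count was 32 on log2(TPM + 1) and 9 at the lowest. Oxidative phosphorylation subunits gave 9 of 45 higher, 5 without ethanol 2 or ethanol 3, 5 with DESeq2 size factors and 31 on log2(TPM + 1). Ribosomal proteins gave 6 of 42 lower, 11 without DEHP 1, 1 to 3 without any other DEHP library or ethanol 3, 5 or 6, and none on log2(TPM + 1), where the median was above 0. The ribosomal share was near the background of 11.7%. That of oxidative phosphorylation was 20.0%, all higher, against 13.9% higher and 25.6% called over all genes.

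Bile acid genes were split, with 6 of 27 higher and 7 lower. Cyp7a1, which catalyses the committed step from cholesterol to bile acids, was not called (median 28.7, range 13.5 to 43.9 FPKM, against median 31.7, range 13.8 to 67.3 FPKM, log2 -0.45 ± 0.35 SE, adjusted p = 0.374). The efflux pump Abcc4 was higher (median 3.31, range 1.74 to 5.72 FPKM, against median 0.41, range 0.17 to 0.59 FPKM, log2 3.21 ± 0.33 SE, adjusted p = 9.13e-08), Cyp39a1, an oxysterol hydroxylase, was lower (median 2.12, range 0.72 to 3.2 FPKM, against median 8.6, range 5.4 to 14.2 FPKM, log2 -2.22 ± 0.30 SE, adjusted p = 3.87e-06), and the bile acid receptor gene Nr1h4, which encodes FXR, was lower as well (-0.81). Urea cycle and amino acid genes gave 16 of 51 higher and 7 lower. Of 17 periportal hepatocyte genes 10 were lower and none higher, among them Cyp2f2 (log2 -0.62 ± 0.11 SE, adjusted p = 0.00017), whereas 18 pericentral genes gave 4 higher and 3 lower. The periportal list shares Alb and Apof with the carriers, Mup20 with the male-biased genes and Cyp2f2 with the drug-metabolising enzymes. It also shares Ass1, Arg1, Hal, Gls2 and Sds with the urea cycle and amino acid genes, among other overlaps. These counts are therefore not separate results. The pericentral count was 2 higher without DEHP 1, 2 or 6 or ethanol 4 or 5, with 5 lower without ethanol 4. The periportal count was 5 lower and 1 higher on log2(TPM + 1). Interferon-stimulated genes gave 1 of 32 higher and 4 lower, and the 15.6% called lay below the 25.6% of all genes.

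Of the cell type markers, 5 of 10 hepatocyte markers were lower with DEHP and none higher. Among these markers, Alb, Apoa1, Apob, Ttr and Trf are also on the carrier list and F2 is on the coagulation list. No macrophage marker of 14 was called, and 2 of 15 endothelial markers were higher (13.3%, near the 13.9% of all genes). The endothelial count was 5 without DEHP 6, 1 without DEHP 4 or ethanol 4, and 0 without DEHP 1, 2 or 3 or ethanol 1, 2, 5 or 6. All 4 tested adipocyte markers were higher. Cfd, the protease adipsin, lay at 2.79 to 21.9 FPKM (median 6.92) against 0 to 0.34 FPKM (median 0.09) (log2 5.66 ± 1.63 SE, adjusted p = 0.00946), and the fatty acid binding protein Fabp4 at 10.6 to 145 FPKM (median 34.3) against 3.3 to 7.18 FPKM (median 5.86) (log2 3.15 ± 0.56 SE, adjusted p = 0.000138). Cidec (log2 1.07 ± 0.32 SE, adjusted p = 0.0141) and Adrb3 (1.49) were the other ones. The remaining 4 adipocyte markers, Adipoq, Plin1, Lep and Retn, were all listed at 0 in DEHP 1 to 5, where Fabp4 lay at up to 145 FPKM. The 12 largest gaps also held Chil1, a chitinase-like protein (median 7.94, range 0.98 to 21.6 FPKM, against median 0.04, range 0 to 0.42 FPKM, log2 6.13 ± 0.90 SE, adjusted p = 1.01e-05), and Ly6d, a surface protein (5.07). Of the 2 pancreatic acinar markers tested, Cela2a was called (log2 3.20 ± 0.93 SE, adjusted p = 0.012) and without DEHP 6 was not (-0.32, adjusted p = 0.663).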

How the data were processed

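Liver RNA-seq of 24 libraries was used, and DEHP alone was compared with ethanol alone. The deposited gene tables hold expected counts, of which 94.5% to 95.3% were whole numbers, and FPKM per the file headers. The submitters' processing notes name Cuffdiff, mm10 and GRCm38; the aligner is not given in the sources used here, nor is the quantifier. Expected counts were rounded to whole numbers, genes missing from a file were set to 0, and 10697 genes with at least 1 FPKM in at least 6 libraries were tested. The main test was edgeR's quasi-likelihood test (edgeR 4.0.16, R 4.3.3) with TMM scaling and 1 term for each of the 4 groups (20 residual degrees of freedom), with Benjamini-Hochberg adjustment over all tested genes. limma 3.58.1 and DESeq2 1.42.0 served as alternatives, and the scripts were tested on simulated data. Leaving out DEHP 6 was 1 of 26 alternatives. SE values of the main test were obtained by dividing the size of the unshrunken log2 difference by the square root of the test's F statistic. The printed log2 differences are edgeR's slightly shrunken ones, so SE is approximate for weakly expressed genes. Library totals limit precision for genes near 1 FPKM.

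Members and gene lists were chosen with earlier results of these data known. The text draws on genes named by rule: the 12 largest called differences in each direction with at least 5 FPKM and no overlap, up to 4 members per list and direction, genes fixed by name, and cell type markers. Hmgcs1, Mdm2 and Bax were added after their values were seen. Coordinates and promoter windows (250 bases before each start) come from RefSeq, GRCm38.p6; motifs were searched on both strands, and the looser repeat was added after the strict one had been searched. Some list members are not reported here.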

Additional observations from a re-analysis of the deposited data

Results flagged for a closer look

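In each group of 6 libraries, the highest or lowest value was set apart where its gap to the nearest library exceeded 0.625 of the group's range (Dixon's criterion, on log2(FPKM + 1)). This held in 33 of 302 groups of named genes and marker sums (10.9%), where chance gives about 1 in 20, and genes of one tissue are not independent. DEHP 6 accounted for 8 of them. Its pancreatic acinar marker sum was 836 FPKM, its islet sum 9.65 FPKM and its smooth muscle sum 23.6 FPKM, against at most 28.6, 0 and 10.8 FPKM in the other DEHP libraries. It also held 81.2 FPKM of Cela2a (others at most 1.61) and was the DEHP library with Adipoq (4.75 FPKM), Plin1 (1.73 FPKM), Retn (2.41 FPKM) and Lep (0.12 FPKM).

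DEHP 1 had the highest macrophage sum (620 FPKM), neutrophil sum (77.1 FPKM) and Mt1 (343 FPKM, others at most 144), and the lowest Cat (1166 FPKM, others at least 1330.3) and Nr1d1 (3.40 FPKM, others at least 13.1). DEHP 5 was lowest for Cyp4a31 (86.5 FPKM) and Tef (6.39 FPKM), and highest for Serpina12 (0.93 FPKM), Ugt2b38 (5.65 FPKM) and Xbp1 (98.7 FPKM). DEHP 4 was lowest for Cdkn1a (20.7 FPKM, others at least 31.4) and highest for Rdh11 (120 FPKM), with a kidney marker sum of 0.37 FPKM. DEHP 2 was highest for Cry2 (7.3 FPKM).

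Among the ethanol libraries, ethanol 4 was highest for Cpt1a (108 FPKM), Ppara (41.6 FPKM) and Zbtb16 (4.43 FPKM, others at most 1.08) and lowest for Mcm6 (0.60 FPKM) and Nr1d1 (42.9 FPKM). Ethanol 3 was highest for Egr1 (14.9 FPKM, others at most 3.89) and lowest for Hamp (556 FPKM, others at least 1158) and Nr1h4 (49.3 FPKM). Ethanol 5 had the lowest stellate cell marker sum (103 FPKM), ethanol 6 the lowest Me1 (64.8 FPKM), and ethanol 1 held 0.24 FPKM of Adipoq.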

How the results depend on the processing

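The number of genes called higher moved from 1491 to 2985 and that called lower from 1248 to 538 on log2(TPM + 1) with limma. The other 25 alternatives kept both counts within 1.5 times. Leaving out 1 of the 12 libraries gave 1264 to 1428 higher and 1084 to 1319 lower. The replicate block gave 1403 and 1213. Same-numbered libraries of the 2 groups had correlations of -0.13 to 0.13, so the numbers were not taken to pair them, and 1 of 6 correlated best with its own number. Of 120 called genes named above, 112 kept their call under every one of the 26 alternatives that tested them, and 8 did not. A gene that an alternative's filter removed, or that got no adjusted p, was not counted as lost. Cela2a had log2 differences of -0.32 to 3.50 on leaving out 1 library, the lowest without DEHP 6, -0.32 without the 3 libraries with pancreatic or muscle RNA and 1.66 under the replicate block. Those 3 libraries were DEHP 6, vehicle 1 and library 6 of DEHP plus ethanol. Igfbp1 and Srebf1 lost their call under 10 and 13 alternatives. Per1 passed without DEHP 2 or 5 or ethanol 1 or 2 (-0.91 to -1.02), and Cat on log2(TPM + 1) (0.26). On log2(TPM + 1) the count of complement and coagulation genes lower went from 32 to 19, those of urea cycle and amino acid genes from 16 to 25 higher and 7 to 2 lower, that of p53 targets from 6 to 11 higher, that of DNA replication from 8 to 14 higher, and those of fasting and interferon genes from 6 to 3 and 4 to 0 lower. Interferon genes higher numbered 0 to 2 on leaving out 1 library. The list medians of bile acid, drug metabolism, clock output, urea cycle, ribosomal, interferon and pericentral genes changed sign under at least 1 scaling, and the medians of the other 28 lists did not. Depth limits the genes near 1 FPKM, and the labels leave hour of collection, carrier and pooling unknown.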
